A study of Homo sapiens with 6 samples.

Results

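A set of 5851 SON binding sites was listed in untreated IMR90 cells and again after 3 days of ICM, and was no longer listed after 6 days. These sites, called members from here on, are the untreated SON peaks on chromosomes 1 to 22 and X that overlap a 3-day SON peak by at least 1 bp and overlap no 6-day SON peak. They were chosen by measured values, namely the presence or absence of a called peak in the 3 SON lists, and made up 26.3% of the 22216 untreated peaks (95% Clopper-Pearson interval 25.8% to 26.9%). Of the rest, 4243 untreated peaks were found at both 3 and 6 days, 621 at 6 days only, and 11501 in untreated cells only. The interval, like all others given, covers counting error only.

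IMR90 cells are fibroblasts of human embryonic lung, kept as an established line. SON was mapped by ChIPmentation, in which a transposase cuts and tags antibody-bound chromatin on the beads, in cells without treatment and at 3 and at 6 days of one named ICM in the labels, which do not spell it out. The DNA-binding protein HMGB2 was mapped in untreated cells. Cells for SON were fixed with formaldehyde, and cells for HMGB2 first with the protein-to-protein crosslinker EGS and then with formaldehyde. The series has 6 samples, of which 4 gave the lists used, 1 for each group; the input for HMGB2 and a further HMGB2 sample with DSG in its title were not analysed here. The study asked how SON and HMGB2 relate to CTCF, genome folding and gene expression in senescent cells. With 1 list per group no test between conditions was possible, and the sequencing depth behind the lists is not known. The chromosomal lists held 22216 untreated, 11028 3-day, 5481 6-day and 5992 HMGB2 peaks, so "missing at 6 days" means not listed in the shortest of the SON lists. A stricter limit of replicate agreement, an IDR of at most 0.05, was reached by 16.0% of 6-day lines. It was reached by 59.7% of untreated and 41.8% of 3-day lines.

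SON is a large protein rich in serine and arginine that, with SRRM2, forms the core of nuclear speckles, the bodies in which splicing factors are stored and modified. Genes that lie close to speckles are mostly active and rich in G and C, and SON is needed for the splicing of many transcripts with weak splice sites. HMGB2 is an abundant chromatin protein that bends DNA and is lost from the nucleus when fibroblasts become senescent. NRF1, YY1, ETS factors and NF-Y, which binds the CCAAT box, are activators that recognise short motifs in promoters of widely expressed genes.

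The promoters under the strongest members show the kind of DNA at these sites. Each sequence runs 5′ to 3′ on the gene's strand, from 250 bases before the start to 50 after it, in RefSeq's GRCh38.p14. CCDC191 (chr3:114056477-114056776, minus strand) faces QTRT2, a subunit of the enzyme that places queuine in tRNAs, across the same stretch. MORF4L1 (chr15:78872640-78872939, plus strand) encodes a chromodomain protein of histone acetyltransferase and deacetylase complexes. POLR2E (chr19:1095326-1095625, minus strand) encodes a subunit shared by the nuclear RNA polymerases. IREB2 (chr15:78437966-78438265, plus strand) encodes an iron-sensing RNA-binding protein. Capitals mark matches, on either strand, to CCAAT, to ACTACAA, a core of the site of ZNF143 and THAP11, and to TCTCGCGA, a core of the site of BANP.
CCDC191: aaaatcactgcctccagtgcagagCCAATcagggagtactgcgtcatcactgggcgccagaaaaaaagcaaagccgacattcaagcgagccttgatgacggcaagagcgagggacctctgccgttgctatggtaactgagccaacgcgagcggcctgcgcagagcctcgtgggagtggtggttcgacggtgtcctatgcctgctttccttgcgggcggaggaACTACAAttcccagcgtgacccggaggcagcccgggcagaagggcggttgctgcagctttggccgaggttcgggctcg
MORF4L1: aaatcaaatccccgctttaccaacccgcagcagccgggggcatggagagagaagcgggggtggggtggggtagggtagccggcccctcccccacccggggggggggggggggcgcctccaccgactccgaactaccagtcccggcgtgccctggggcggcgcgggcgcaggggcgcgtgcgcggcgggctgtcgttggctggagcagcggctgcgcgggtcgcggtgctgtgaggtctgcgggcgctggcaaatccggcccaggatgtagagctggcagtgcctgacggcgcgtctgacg
POLR2E: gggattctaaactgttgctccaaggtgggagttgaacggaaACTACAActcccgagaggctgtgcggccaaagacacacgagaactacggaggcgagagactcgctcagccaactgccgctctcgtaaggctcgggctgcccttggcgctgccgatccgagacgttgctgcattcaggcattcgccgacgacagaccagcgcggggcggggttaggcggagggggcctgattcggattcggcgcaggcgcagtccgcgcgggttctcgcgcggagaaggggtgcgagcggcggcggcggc
IREB2: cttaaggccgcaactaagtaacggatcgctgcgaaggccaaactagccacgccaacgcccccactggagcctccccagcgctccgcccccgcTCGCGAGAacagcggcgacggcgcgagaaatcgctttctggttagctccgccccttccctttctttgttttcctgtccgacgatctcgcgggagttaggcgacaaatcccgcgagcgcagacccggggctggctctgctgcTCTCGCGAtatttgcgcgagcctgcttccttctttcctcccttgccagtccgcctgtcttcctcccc
The promoters shown are 60.7%, 73.7%, 65.7% and 63.0% G and C in that order, and that of MORF4L1 holds none of the marked motifs.

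The motif with the largest difference between members and the sites still listed at 6 days, of those searched, was that of NRF1, a factor best known for driving nuclear genes of mitochondrial respiration. The strongest member over a promoter with it lies at NCAPG (chr4:17810729-17811028, plus strand), a condensin subunit. DCAF16, on the minus strand of the same stretch, shares that member and match, and both promoters count in the shares below. The strongest peak found at both times over such a promoter lies at TMEM143 (chr19:48363891-48364190, minus strand), and the next at MAP2K7 (chr19:7903627-7903926, plus strand), a kinase upstream of JNK. Capitals mark matches to GCGCATGCG on either strand and, in NCAPG, to the ETS motif CCGGAAG and, in MAP2K7, to CCAAT, which there overlaps the NRF1 match.
NCAPG: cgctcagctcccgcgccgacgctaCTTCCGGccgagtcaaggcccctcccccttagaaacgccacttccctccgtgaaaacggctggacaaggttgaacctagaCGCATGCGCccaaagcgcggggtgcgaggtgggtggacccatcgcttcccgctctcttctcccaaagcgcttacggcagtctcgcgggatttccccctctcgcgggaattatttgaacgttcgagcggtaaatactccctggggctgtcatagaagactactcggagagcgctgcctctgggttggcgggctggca
TMEM143: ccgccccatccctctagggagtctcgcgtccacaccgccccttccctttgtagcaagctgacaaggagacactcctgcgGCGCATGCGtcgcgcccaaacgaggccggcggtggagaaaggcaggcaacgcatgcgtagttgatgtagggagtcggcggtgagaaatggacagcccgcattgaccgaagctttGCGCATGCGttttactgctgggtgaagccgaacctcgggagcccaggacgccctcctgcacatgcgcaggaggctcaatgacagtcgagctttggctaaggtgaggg
MAP2K7: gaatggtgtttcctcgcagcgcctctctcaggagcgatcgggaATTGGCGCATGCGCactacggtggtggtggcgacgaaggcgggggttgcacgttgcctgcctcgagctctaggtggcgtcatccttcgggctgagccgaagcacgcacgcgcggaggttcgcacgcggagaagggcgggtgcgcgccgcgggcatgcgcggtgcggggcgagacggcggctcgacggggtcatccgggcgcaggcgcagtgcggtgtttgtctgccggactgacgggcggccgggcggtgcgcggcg
NCAPG holds 1 NRF1 match, TMEM143 holds 2 apart, and the 2 in MAP2K7 are the overlapping readings of a palindrome.

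Members overlapped 3059 of the 22131 promoters in the table, at 2634 genes, and the motif shares below are over those promoters. Several starts of a gene, and facing starts under a single peak, each count as a promoter. The intervals take them as independent and may therefore be too narrow. The NRF1 motif was in 148 of them, 4.84% (4.11% to 5.66%). It was in 11.95% of the 2175 promoters under peaks found at both times and in 1.10% of the 2267 under peaks found only in untreated cells, against 2.36% of all promoters in the table. The members' share minus that of the peaks found at both times was −7.12 percentage points (Newcombe interval −8.71 to −5.58), and minus that of the peaks found only in untreated cells 3.73 points (2.86 to 4.63). Members thus stood between the classes on either side.

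The same order held within each of 5 equal classes of untreated SON strength. In class 1, the weakest, the NRF1 motif was in 5.50% of promoters under members and 12.1% of those under peaks found at both times. In class 5, the strongest, the shares were 5.63% and 11.6%. The lowest members' share was 3.26%, in class 4, where it was 13.5% for the peaks found at both times. Of promoters under a peak found at 3 days, 36.3% of those with the motif and 60.3% of those without were under members. The weak classes are thin, with 33 promoters under peaks found at both times in class 1 and 30 in class 2.

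For the ETS, YY1, cyclic AMP and GC box motifs the difference from peaks found at both times had an interval that included 0. The ETS motif was in 24.0% and 23.9% of their promoters (difference 0.13 points, −2.23 to 2.46), YY1's AAGATGGCG in 5.13% and 6.16% (−2.34 to 0.23), the cyclic AMP response element TGACGTCA in 4.54% and 4.51% (−1.14 to 1.16), and the GC box GGGCGG in 74.8% and 72.9% (−0.49 to 4.35). By class of untreated strength the ETS gap changed direction. The members' share was higher in classes 1, 2, 3 and 5, for example 21.4% against 6.06% (2 of 33 promoters) in class 1. It was lower in class 4, 24.5% against 33.2%. CCAAT was in 42.6% under members and 49.2% under peaks found at both times, a difference of −6.65 points (−9.38 to −3.91), against 34.6% of all promoters. In classes 1 to 3 it was in 31.3%, 37.1% and 34.8% under members and 51.5%, 43.3% and 47.8% under peaks found at both times. In class 4 it was in 44.8% and 43.9%, and in class 5 in 531 of 1120 and 911 of 1822 promoters. ACTACAA and TCTCGCGA were searched after the sequences above had been seen. ACTACAA was in 5.002% under members and 7.68% under peaks found at both times (difference −2.68, −4.07 to −1.34), and in the strongest class in 8.48% and 8.45%. TCTCGCGA was in 4.45% and 3.95% (difference 0.49, −0.64 to 1.58), against 1.58% of all promoters. In class 4 it was in 4.18% and 0.90% (2 of 223 promoters), and in class 5 in 6.61% and 4.61%. Under peaks found only in untreated cells TCTCGCGA was in 3.13% of promoters. There its share in class 4 was 6.12%, above that of members, and in class 5 5.16%, below it. Median G and C content was 65.3% under members, 64.0% under peaks found at both times and 60.0% in promoters met by no untreated SON peak, and the median number of CpG dinucleotides was 27, 27 and 13. Under peaks found only in untreated cells the medians were 65.3% and 26.

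**Figure D1:**
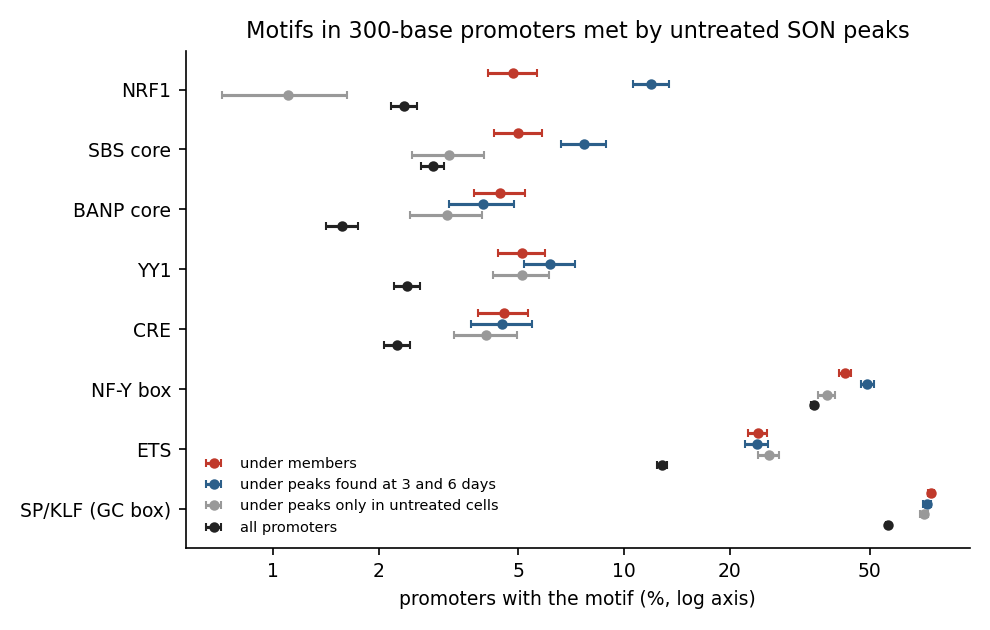
Share of 300-base promoters that hold each motif (%, log axis), for promoters under members, under untreated SON peaks found at 3 and 6 days, under peaks found only in untreated cells, and for all promoters of the table; points are shares and bars 95% Clopper-Pearson intervals. For NRF1 the members (4.84%) sit between the peaks found at both times (11.95%) and those found only in untreated cells (1.10%), while for ETS and GC box the classes lie close together.

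Members were of intermediate strength in the untreated list. The authors' −log10 p of a peak is its own score, used here only to rank peaks within a list, and since the rule used these lists the values are a description. The members' median was 12.7, with quartiles 9.13 and 17.8, a lowest value of 3.76 and a highest of 67.0. Peaks found at both times had a median of 21.5 and a highest value of 690.5, and peaks found only in untreated cells a median of 7.89. The ranges overlapped widely, with members at a median percentile of 65.1 in the untreated list. Members were 463 bp wide at the median, against 540 bp and 355 bp.

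Within the 3-day list, too, members ranked below the sites found at both times. They met 5842 distinct 3-day peaks, whose median −log10 p was 8.23, at percentile 40.4 of that list, whereas the 3-day peaks of the sites found at both times had a median of 12.7 and percentile 73.3. The lists differ in length, so a rank in one is not set against a rank in another. A global IDR of at most 0.05, a stricter measure of replicate agreement, was reached by 76.5% of members in the untreated list and 29.5% at 3 days, against 88.5% and 65.6% of the peaks found at both times. Across members the untreated and 3-day values had a Spearman rho of 0.43 (n = 5851), and across peaks found at both times 0.70 (n = 4243), as a description over peaks that share their libraries. In 64.9% of members the 2 replicate columns of the untreated list held the same value, so they are not read as independent replicates.

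The share of members did not follow untreated strength in a simple order. It was 11.6%, 17.2%, 27.2%, 42.4% and 33.3% in classes 1 to 5. Of the peaks found at 3 days, 80.6%, 78.2%, 74.6%, 68.4% and 36.1% were missing at 6 days in the same classes. Class 5 thus had the smallest share missing at 6 days. With an IDR of at most 0.05 required in the untreated and 3-day lists 1535 of 13255 peaks, 11.6%, met the rule, and with each SON list cut to its 5481 strongest peaks 1223 of 5481, 22.3%, did.

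**Figure D2:**
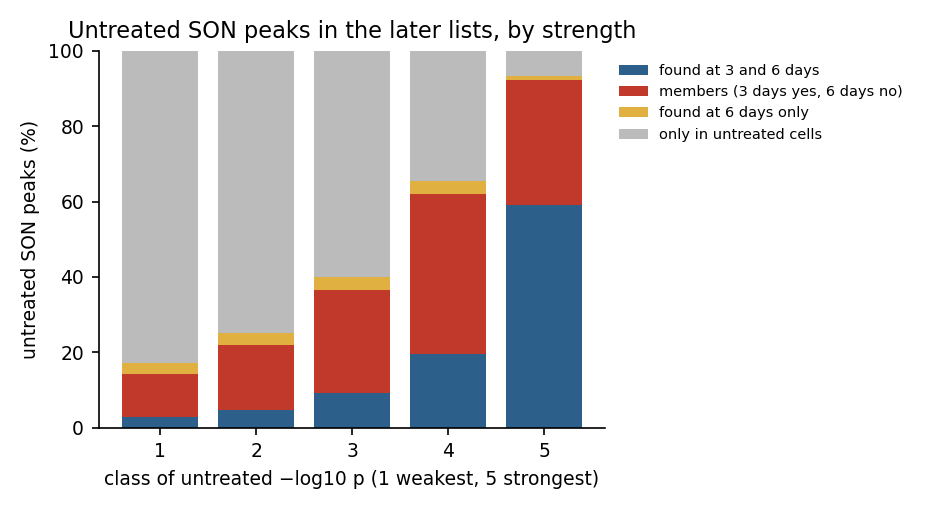
Untreated SON peaks (%) by class of untreated −log10 p, each bar split into peaks found at 3 and 6 days, members, peaks found at 6 days only and peaks found only in untreated cells. The members' portion widens from 11.6% in class 1 to 42.4% in class 4 and is 33.3% in class 5, where the peaks found at both times take most of the bar.

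Few members lay at the edge of the rule. The nearest 6-day peak was 91.6 kb away at the median, with quartiles 33.1 kb and 244.1 kb, and 74 members (1.26%) had one within 1 kb. The closest were 77 bp away, 75.9 kb from NPAS2, 86 bp away in DCP1B and CACNA1C, and 88 bp away, 0.51 kb from CNOT1. On the other side of the limit, 2 of the peaks found at both times overlapped their 6-day peak by 100 bp or less, and 0 by 10 bp or less. The members' overlap with their 3-day peak was 100% of the shorter peak at the median.

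Members lay at transcription starts more often than any other class of untreated SON peak. Of the 5615 members on chromosomes with listed start sites, 2472 had a protein-coding start within 1 kb, 44.0% (42.7% to 45.3%), against a background of 29.5% over all untreated peaks there. The share was 40.5% of peaks found at both times, 19.4% of peaks found only in untreated cells and 4.22% of peaks found at 6 days only. The members' share exceeded that of peaks found at both times by 3.52 points (1.53 to 5.50) and that of peaks found only in untreated cells by 24.7 points (23.2 to 26.1).

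By class of untreated strength the gap to the peaks found at both times was wider. In classes 1 to 5 the members' shares were 32.2%, 29.5%, 37.6%, 44.1% and 60.7%, and those of peaks found at both times 21.1%, 12.6%, 13.8%, 19.6% and 54.6%. Weighted to the members' own classes the comparison was 44.0% against 26.5%, and within classes of 3-day strength 44.0% against 20.3%. Read the other way, of peaks found at 3 days in class 3, 89.0% of those at a start site and 68.2% of those elsewhere were missing at 6 days (difference 20.8 points, 16.7 to 24.6). In class 5 it was 38.4% and 32.7% (5.72 points, 2.72 to 8.70). Within classes of untreated strength a site at a start was thus missing at 6 days more often than one elsewhere, in 5 of 5. Class 5 spans −log10 p values from 17.75 to 690.5, so strength still differs within it.

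**Figure D3:**
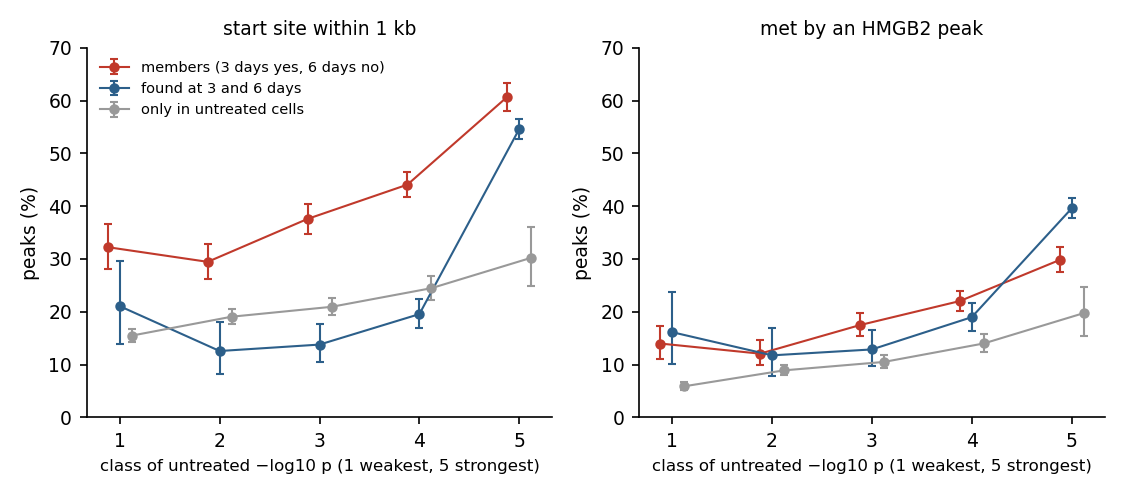
Share of untreated SON peaks (%) within 1 kb of a protein-coding start site (left) and met by an HMGB2 peak (right), by class of untreated −log10 p, for members, peaks found at 3 and 6 days and peaks found only in untreated cells; bars are 95% Clopper-Pearson intervals. On the left the members lie above the peaks found at both times in every class (37.6% against 13.8% in class 3); on the right the members lie higher in class 3 (17.5% against 12.9%) and lower in class 5 (29.8% against 39.6%).

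Summits of members lay just upstream of the start. Among the 2445 with a summit within 1 kb of a start site the median position was 89 bp upstream (−89.0 bp, quartiles −143.0 and −40.0), and 86.4% were upstream. Summits of peaks found at both times lay farther upstream, at a median of −119.0 bp with 91.0% upstream, and those of peaks found only in untreated cells nearer, at −67.0 bp with 80.8%. The quartile ranges overlapped among all of them.

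**Figure D4:**
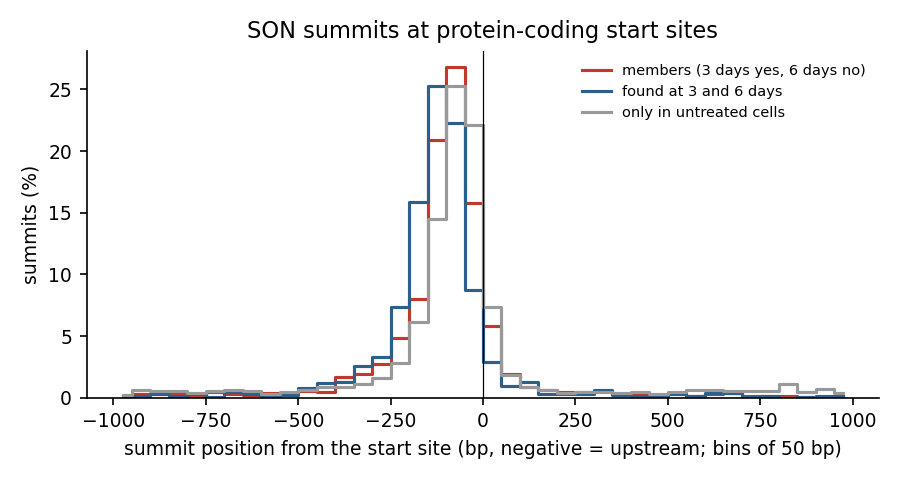
Positions of SON summits relative to the nearest protein-coding start site (bp, negative is upstream, bins of 50 bp), as a share of the summits within 1 kb (%), for members, peaks found at 3 and 6 days and peaks found only in untreated cells. All of the curves peak upstream of the start, with medians of −89.0, −119.0 and −67.0 bp.

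Over all members, those at starts included, 73.2% lay inside a protein-coding gene. The share was 72.2% of peaks found at both times and 62.7% of peaks found only in untreated cells. More than 50 kb from any start site were 27.5% of members, 27.7% of peaks found at both times and 40.8% of peaks found only in untreated cells. Small RNA genes within 500 bp were rare. A tRNA gene was at 42 members (0.72%), against 0.61% of peaks found at both times and 0.36% of those found only in untreated cells, a snoRNA gene at 14 (0.24%, against 0.19% and 0.017%), and an snRNA gene at 10 (0.17%, against 0.31% and 0.18%).

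HMGB2 peaks met members less often than the sites still listed at 6 days and more often than those found only in untreated cells. An HMGB2 peak overlapped 1231 members, 21.0% (20.0% to 22.1%), against a background of 16.5% over all untreated SON peaks. The share was 30.7% of peaks found at both times and 9.26% of peaks found only in untreated cells, so the members' share minus the others' was −9.62 points (−11.4 to −7.89) and 11.8 points (10.6 to 13.0). At start sites the shares of members, peaks found at both times and peaks found only in untreated cells were 29.6%, 45.4% and 17.9%, and away from them 14.9%, 21.4% and 7.25%.

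Within strength classes the direction of this difference varied. In classes 1 to 5 an HMGB2 peak met 13.98%, 12.1%, 17.5%, 22.02% and 29.8% of members and 16.1%, 11.7%, 12.9%, 18.97% and 39.6% of peaks found at both times. The members' share was the lower in classes 1 and 5 and the higher in classes 2, 3 and 4. Read the other way, sites found at 3 days with an HMGB2 peak were missing at 6 days more often than those without one in class 3 (6.06 points, 0.26 to 11.1) and less often in class 5 (−9.55 points, −12.5 to −6.49), and in classes 1, 2 and 4 the interval of the difference included 0. Weighted to the members' classes of untreated strength the difference shrank to −0.68 points, and within classes of 3-day strength it was 0.66 points. Against the peaks found only in untreated cells it was 7.70 points within untreated classes, down from 11.8. The HMGB2 peaks at members were at the median percentile 59.4 of the HMGB2 list, those at peaks found at both times at 65.9, and those at peaks found only in untreated cells at 51.1.

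Start sites and HMGB2 divided the sites found at 3 days. Missing at 6 days were 65.8% (63.9% to 67.6%) of the 2646 at a start site without HMGB2, 58.3% of the 4585 with neither, 49.3% of the 1482 with both and 47.5% (44.3% to 50.6%) of the 990 with HMGB2 only. The median untreated −log10 p also differed among them. For members it ran from 11.2 with neither to 15.8 with a start site and HMGB2. For peaks found at both times it ran from 15.9 to 35.2 in the same groups. The part of strength in these shares was not tested beyond the classes above.

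The strongest members lay mostly at transcription starts. At CCDC191 and QTRT2 (chr3:114056286-114056904) the untreated −log10 p was 67.0 and 72.3 in the 2 replicates, the 3-day values were 24.1 and 30.1, and the nearest 6-day peak was 262.5 kb away. At MORF4L1 (chr15:78872295-78873335) the untreated value was 65.8 and the 3-day values 44.0 and 91.6, so this site was near the top of both lists. At RPL3 (chr22:39319589-39320003), a protein of the large ribosomal subunit, the untreated value was 57.5 and the 3-day value 11.1. Over the 10 strongest the 3-day percentile ranged from 51.5 at CAMTA1 to 96.7 at MORF4L1.

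USP34, a deubiquitinase, had 62.6 in the untreated list and 27.7 at 3 days. IREB2 had 53.6 and 10.1, NOP14, a factor of small ribosomal subunit assembly whose start lies next to that of GRK4, had 51.6 and 15.5, and ING4, a reader of methylated histone H3, had 51.5 and 22.4. Only 2 of the 10 strongest had no listed start site within 1 kb. One lies inside CAMTA1, a calmodulin-binding transcription factor, with 55.2 and 9.20, and the other between genes on chr2:61763877-61764732, 35.5 kb from FAM161A, with 59.4 and 28.5. An HMGB2 peak met 3 of the 10, namely these last 2 and POLR2E.

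POLR2E (chr19:1095259-1095751) carried the strongest HMGB2 peak at any member. Its SON values were 59.4 untreated and 21.0 at 3 days, and the HMGB2 peak there, at percentile 99.97 of its list, had a −log10 p of 198.9 and was enriched 17.2-fold. The next were at the starts of GOLGA5, a golgin, with an HMGB2 value of 109.2, EFTUD2, the GTPase of the U5 snRNP, with 107.4, NUP85, a nucleoporin, with 99.8, and RPL21, a ribosomal protein, with 98.7. Their SON values ranged from 12.01 at EFTUD2 to 40.4 at GOLGA5 in untreated cells and from 7.75 at RPL21 to 28.1 at GOLGA5 at 3 days. All of these members lie at a start site.

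The 10 members with the highest 3-day values included sites of differing untreated rank. Here and throughout, values of the untreated and 3-day lists stand side by side as each list's own score and show no change. Their percentiles, from lists of unlike length, show none either. Near MEF2D (chr1:156457243-156457493, 6.23 kb from the gene) the untreated value of 6.89 was at percentile 20.4, and the 3-day values were 34.0 and 114.6, at percentile 94.8. A 6-day peak lies 360 bp from it, so this member is one of the 74 near the edge of the rule. At AURKB, the Aurora kinase of mitosis, a member 4.07 kb from the gene had 28.1 untreated and 42.2 and 126.7 in the 3-day replicates. At EIF3K, a subunit of a translation initiation factor, the values were 28.4 untreated and 36.2 and 103.9 at 3 days. The 3-day replicates of these members differ widely, and the list takes the lower.

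The other strong members at 3 days were at CNOT9, TOR1AIP1, CYB5R4, NAT9, CARNMT1 and EIF3E. EIF3E (chr8:108248477-108249137) had the highest 3-day value of any member, 52.1, against 38.2 untreated. CNOT9, a subunit of the deadenylase complex, had 44.8 against 39.1, and TOR1AIP1, a protein of the inner nuclear membrane, 39.7 against 47.9. Of the 10 strongest at 3 days only the member near AURKB was met by an HMGB2 peak.

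Over all protein-coding genes, 3863 of 19970 (19.3%) had a member within the gene or 5 kb of it and no 6-day SON peak there. Over the genes of 25 lists of pathways and families it was 211 of 651, 32.4%. An untreated SON peak of any class was at 57.1% of all protein-coding genes and, for example, at 96.2% of cytosolic ribosomal protein genes, so counts are given beside the number with a 6-day peak. Among genes with a 3-day SON peak, 50.3% of all protein-coding genes had no 6-day peak. By that measure, which sets aside how many genes had a peak to lose, the lists ran from 12.5% for nuclear lamina and for fibroblast matrix genes (8 genes each with a 3-day peak) through 34.8% for hnRNP genes, 58.7% for cytosolic ribosomal protein genes and 69.6% for cell cycle genes to 100% for the 8 high mobility group genes.

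Among genes of the translation machinery the lists differed. Of 79 cytosolic ribosomal protein genes 37 (46.8%, 35.5% to 58.4%) had a member and no 6-day peak, and 26 had a 6-day peak. Besides RPL3, RPS13 had 38.6 untreated and 20.8 at 3 days, and RPS19 33.9 and 7.08. Of 77 mitochondrial ribosomal protein genes 25 were in this state, MRPL50 with 41.8 and 15.1 with an HMGB2 peak, among them, and the member counted for MRPL55 lies over its neighbour C1orf35. Of 34 initiation and elongation factor genes 11 were, EIF3E and EIF3K at their head, and the member counted for EEF2 lies at the start of DAPK3. A 6-day peak was at 24 of the 77 and 21 of the 34. The shares of the last 2 lists, 32.5% and 32.4%, were at the level over all listed genes.

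High mobility group genes had the highest share of any list, with 8 of 10 (80.0%, 44.4% to 97.5%), and none of the 10 had a 6-day SON peak. A member inside HMGB2 (chr4:173334320-173334831) had 50.1 untreated and 19.8 at 3 days, and was itself met by an HMGB2 peak with a −log10 p of 15.7. HMGB1 had 3 members, the strongest at its start with 23.6 and 9.73, and HMGN5, a nucleosome-binding protein, had 18.4 and 10.0. Nuclear lamina genes were at the other end, with 0 of 13 in this state and 7 with a 6-day peak. A count of 0 of 13 allows a share of up to 24.7%.

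Among cell cycle genes 15 of 30 (31.3% to 68.7%) had a member and no 6-day peak, and 8 had a 6-day peak. Over all protein-coding genes the share with a member and no 6-day peak was 19.3%. BUB1B, a spindle checkpoint kinase, had 28.4 untreated and 6.61 at 3 days, and CDC25A, a phosphatase that activates cyclin-dependent kinases, had 23.3 and 7.62. Of 15 genes for CTCF and cohesin 6 had a member and no 6-day peak (16.3% to 67.7%, which includes 19.3%). SMC3, a cohesin core subunit, had 19.01 and 9.73, MAU2, of the cohesin loader, shares a start region with SUGP1 and had 30.3 and 15.4, and ESCO2, a cohesin acetyltransferase, had 24.1 and 16.0. CTCF itself had a 6-day peak.

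Splicing genes gave mixed counts, to be read beside the 19.3% over all protein-coding genes. Of 16 speckle scaffold genes 6 (37.5%, 15.2% to 64.6%) had a member and no 6-day peak and 7 had a 6-day peak. SON itself had a member at the start it shares with GART (chr21:33542746-33543182), with 49.5 untreated and 19.9 at 3 days, met by an HMGB2 peak. SRRM2 had 25.5 and 15.4 without one, and the member counted for RNPS1 lies over ECI1. The kinases that phosphorylate SR proteins had 4 of 7 (57.1%, 18.4% to 90.1%), and 1 of the 7 had a 6-day peak. DYRK1A was at 35.2 and 14.1, CLK3 at 17.8 and 10.1 and CLK4 at 16.1 and 10.0. The intervals of the scaffold and kinase lists include 19.3%.

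SR splicing factors had 5 of 14 (12.8% to 64.9%, which includes the 19.3% over all protein-coding genes). SRSF3 had 25.3 untreated and 28.4 at 3 days, TRA2B 23.1 and 7.65, and SRSF11 17.0 and 13.6. The U1 and Sm core list had 8 of 15 (26.6% to 78.7%, above that share). SNRPD3 was at 21.3 and 16.9, SNRPA at 19.3 and 5.53 and SNRPD1 at 16.3 and 8.16. In each of the SR and the U1 and Sm lists 6 genes had a 6-day peak.

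The hnRNP genes had 8 of 24, with HNRNPA3 at 42.4 and 15.7, HNRNPU at 33.0 and 16.5 and HNRNPA0 at 26.7 and 15.6, and 15 of the 24 had a 6-day peak. Genes of 3′ splice site recognition had 7 of 19, among them PUF60 at 36.9 and 27.2 and SF3A3 at 27.5 and 12.7, and 11 had a 6-day peak. The U4/U6.U5 tri-snRNP list had 6 of 24, with PRPF4 at 48.1 and 16.4, SNU13 at 13.4 and 10.5 and EFTUD2 as above, and 14 had a 6-day peak. RBM family genes had 7 of 29, led by RBM4, RBM15B at 30.6 and 8.79 and RBM8A at 21.5 and 6.09. DEAD and DEAH box helicases had 12 of 42, with DDX19A at 31.7 and 14.6 and DDX5 at 21.6 and 6.48, while the member counted for DDX19B lies at AARS1. In the hnRNP, 3′ splice site and tri-snRNP lists more genes had a 6-day peak than had a member without one. That order is not particular to them: over all protein-coding genes the shares were 21.5% and 19.3%. Other lists, such as initiation and elongation factors and heat shock genes, had it too. The intervals for hnRNP (15.6% to 55.3%), 3′ splice site (16.3% to 61.6%) and tri-snRNP genes (9.77% to 46.7%) included 19.3%. So did those for RBM (10.3% to 43.5%) and helicase genes (15.7% to 44.6%).

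Among housekeeping complexes a member and no 6-day peak was at 35.5% of proteasome, 21.6% of complex I and 16.7% of RNA polymerase II genes. Each interval included the 19.3% over all protein-coding genes (19.2% to 54.6%, 9.83% to 38.2% and 2.09% to 48.4%). Proteasome genes had 11 of 31, with PSMD2 at 28.7 and 15.3, PSMB7 at 26.2 and 10.2 and PSMA6 at 24.6 and 8.73. Complex I genes had 8 of 37, with NDUFA2 at 22.5 and 16.7 and NDUFV1 at 16.5 and 8.33, and the member counted for NDUFB6 lies over TOPORS and SMIM27. RNA polymerase II subunits had 2 of 12, POLR2E and POLR2K, the latter with 10.4 and 5.57. Heat shock genes had 7 of 23 (13.2% to 52.9%, which also includes 19.3%), and 13 had a 6-day peak. At their head were HSPA4 at 27.0 and 8.42, the factor HSF2 at 25.7 and 11.2 and HSPA2 at 17.2 and 11.4.

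The secretory phenotype and fibroblast matrix lists had low counts. Secretory phenotype genes had 2 of 24 (8.33%, 1.03% to 27.0%), PLAUR, the urokinase receptor, at 25.7 and 8.58 and the chemokine CCL2 at 9.36 and 6.62. Fibroblast matrix genes had 1 of 21, the collagen gene COL5A1 at 20.4 and 7.597. In these lists 10 of 24 and 16 of 21 genes had an untreated SON peak, and 4 and 8 had a 3-day peak, of which 2 and 1 had none at 6 days. Both intervals include the share of 19.3% over all genes, that of the matrix list being 0.12% to 23.8%.

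CDKN1A, the inhibitor of cyclin-dependent kinases that rises in senescence, had 2 members. The stronger lay inside the gene (chr6:36680088-36680763) with 23.6 untreated and 5.27 and 9.48 in the 3-day replicates. Actin cytoskeleton genes had 6 of 24, TPM4 at 26.6 and 12.2, CALD1 at 14.04 and 10.2 and PFN1, whose member lies over ENO3, at 13.6 and 14.8. AP-1 genes had 5 of 14, MAFG at 19.6 and 8.997, JUNB at 13.9 and 12.2 and FOSB at 12.1 and 13.0. The intervals of the actin list, 9.77% to 46.7%, and the AP-1 list, 12.8% to 64.9%, include the 19.3% over all protein-coding genes. Of the remaining genes looked up by name, NEAT1, the paraspeckle RNA, had 1 member (16.3 and 7.58), and RAD21, MALAT1, SRSF2 and LMNB1 had none.

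**Figure D5:**
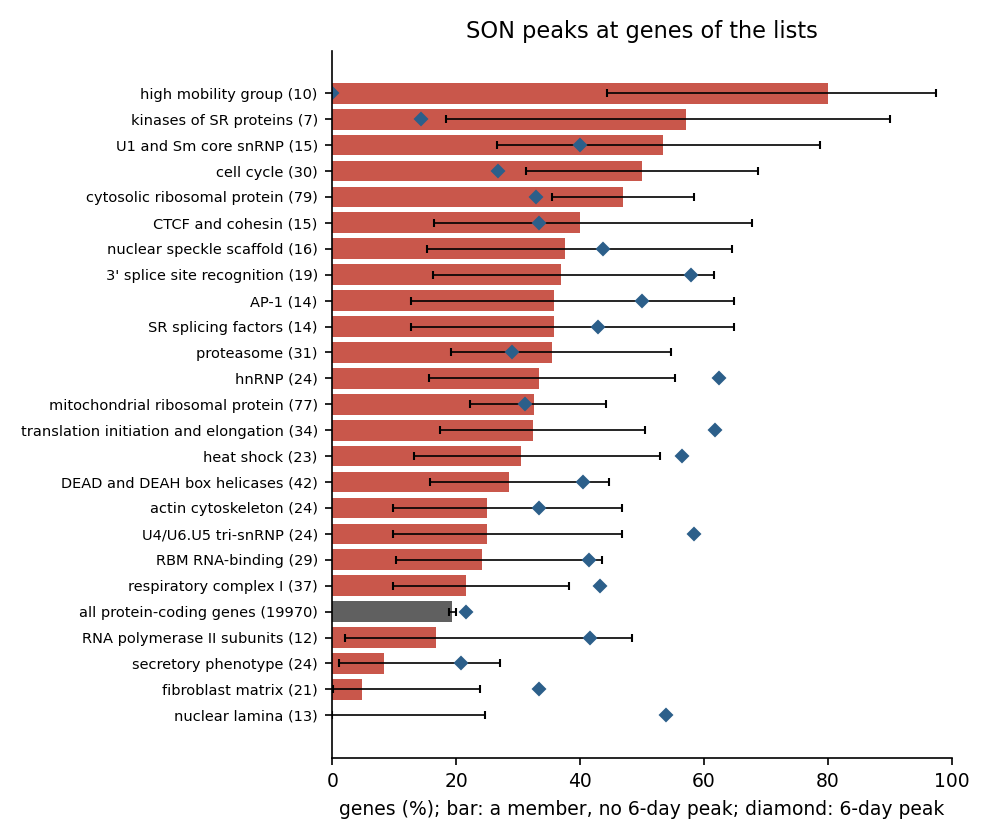
For each gene list (number of genes in brackets) the bar gives the share (%) of genes with a member within the gene or 5 kb and no 6-day SON peak, with its 95% Clopper-Pearson interval, and the diamond the share with a 6-day peak; the dark bar is all protein-coding genes (19.3%). High mobility group genes are highest (80.0%, none with a 6-day peak) and nuclear lamina genes lowest (0 of 13).

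Members were spread over all chromosomes. Their share of untreated peaks ran from 22.1% (17.3% to 27.6%) on chromosome 21 to 29.9% (25.4% to 34.8%) on X. Of the peaks found at 3 days, the share missing at 6 days was lowest on chromosome 19, 47.0%, and chromosome 21, 47.2%, and highest on X, 73.1%, against 58.0% over all. With an IDR of at most 0.05 in the untreated and 3-day lists the values were lower, 25.6%, 28.0% and 53.4%, against 36.9% over all, and these chromosomes were still the lowest and the highest. For chromosome 21 that value rests on 14 of 50 peaks, with an interval (16.2% to 42.5%) that includes 36.9%. The interval of X (41.4% to 65.2%) overlaps that of chromosome 15 (51.0%, 40.9% to 61.0%). Chromosome 19 had a members' share of 29.4% and also the highest share found at both times, 33.1%, while X had the lowest, 11.02%.

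In 1-Mb bins with at least 10 untreated peaks, 968 in all, the share of members had quartiles of 18.2% and 34.8%, and 16 of these bins held none. The bin with the most members was chr19:1000001-2000000, with 17 of 45 peaks (37.8%). Starts met there include those of POLR2E, the ribosomal protein gene RPS15, the kinase gene STK11 and GPX4. The bin chr11:65000001-66000000 held 16 of 53 (30.2%, within the quartiles), with KAT5, CDCA5 and FAU. The bins chr12:6000001-7000000, with ING4, NCAPD2 and PHB2, and chr16:30000001-31000000, with SETD1A and several zinc finger genes, held 15 of 34 each (44.1%). Each of these bins also held 8 to 17 peaks found at both times. By share the highest was chr15:50000001-51000000, with 8 of 11 peaks (72.7%). Elsewhere, 70 of the 968 bins held members and no peak found at both times, among them chr20:3000001-4000000 with 8 members of 14 peaks.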

How the data were processed

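Deposited peak lists of IMR90 cells were used. The submitters' processing notes name hg38, bcl2fastq 2.17, Bowtie2, MACS2 and deepTools, without settings. Per the file columns, each SON list is output of the IDR tool on 2 replicates, whose nature is not stated: the authors' −log10 p is the lower of both replicates, the −log10 global IDR stands beside it, and as the signal column is only a filler, −log10 p replaced it as the planned measure of strength. The largest global IDR was 0.431, 0.447 and 0.63. In the HMGB2 list the authors deposited a fold enrichment, −log10 p and −log10 q (largest q 0.0287), and a score, which was not used. Depth is unknown.

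Peaks were shared at 1 bp of overlap. Strength classes are 5 equal classes of untreated −log10 p. Shares have 95% Clopper-Pearson and differences Newcombe intervals. Start sites (22131 of 15811 protein-coding genes, none on chromosome 8) and genes (19970) came from RefSeq tables of GRCh38.p14, and 651 of 652 listed genes matched. A peak at the start of a gene without a listed start site could thus be counted as away from start sites. Motifs were searched on both strands. The members, gene lists and motifs were chosen with earlier results of these data known.

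Genes named are the 10 strongest members in the untreated list and at 3 days, the 5 with the strongest HMGB2 peaks, the 3 nearest a 6-day peak, up to 3 genes per list by strength, 12 fixed genes and the fullest bins; 1 gene and 1 list are not reported here. Scripts were tested on simulated data (Python 3.11.15 with scipy 1.17.1, pandas 2.3.3 and matplotlib 3.10.9).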

Additional observations from a re-analysis of the deposited data

Results flagged for a closer look

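Outside chromosomes 1 to 22 and X, on unplaced contigs and the mitochondrial genome, 29 of 146 untreated SON peaks (19.9%, 13.7% to 27.3%) met the same rule and entered no comparison. Another 96 of these were found at both times, and of the 8 mitochondrial peaks 0 met the rule.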

How the results depend on the processing

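No paired analysis was possible because each group is 1 list, and for the same reason no replicate could be left out. The number of members was 5848 with an overlap of 50% of the shorter peak and 5777 with no 6-day peak within 1 kb. It was 1535 under an IDR limit of 0.05 in the untreated and 3-day lists, with the 6-day list left whole. It was 2907 in the stronger 50% of each list and 1223 with lists of equal length. The last 3 settings start from fewer peaks. The HMGB2 difference from peaks found at both times was −7.08 points at that limit, −7.72 with the stronger 50% of HMGB2 peaks, −0.68 within classes of untreated strength and 0.66, turned in direction, within classes of 3-day strength; the cause was not tested. From peaks found only in untreated cells it was 16.9, 7.67 and 7.70 points in the first 3 of these settings. The start site difference from peaks found at both times was 17.6 points within untreated strength classes, 23.6 within 3-day classes and 11.3 at the IDR limit, and from peaks found only in untreated cells 20.3, 22.8 (window of 5 kb) and 38.0 points (IDR limit). Median untreated strength was 13.0 and 13.5 by replicates 1 and 2. On chromosome 19 the share missing at 6 days of peaks found at 3 days was 25.6% at the IDR limit. The other settings tried, 21 of 40, stayed within the intervals of the reported values, or within 1.5 times a count, and among them were the 3 for each NRF1 difference. The classes of 3-day strength, the gene-end reference, the NRF1 settings by strength and by first start, and the IDR limit for chromosome 19 and for distance were chosen after seeing the data.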
